A study of Mus musculus with 24 samples.

Results

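The heat shock (HS) response of R6/2 mice was compared with that of Hsf1-/- mice as a difference of 2 responses: the change from control to HS in R6/2 quadriceps femoris muscle, minus the same change in Hsf1-/- muscle, on the log2 scale. The comparison asks which heat-responsive genes lose their response in R6/2 mice although they do not need HSF1, and which keep it although they do. It uses 8 of the 24 RNA-seq libraries of the series, from 2 mice in each of 4 groups: R6/2 control, R6/2 HS, Hsf1-/- control and Hsf1-/- HS. The R6/2 mice carry a transgene with exon 1 of mutant HTT and are a model of Huntington's disease with an early and fast course, and the Hsf1-/- mice are homozygous knockouts, so the gene is disrupted in all tissues. All were labelled as CBA x C57BL/6 F1 background. R6/2 mice were 12 weeks old and Hsf1-/- mice 10 weeks old, and muscle was taken 4 h after treatment. HS mice were held under isoflurane in a heating pad, and after a warm-up their core temperature stayed at 41.5 °C for 15 min. Control mice received the same anaesthesia and pad with a core temperature of 36.9 °C for 21 min, which matches warm-up and HS together. Of 13754 genes tested, 283 were called in the HS response of wild type mice of the same experiment (2.06% of genes tested), 219 of which rose and 64 fell. With scaling by library size only, 316 were called, 161 up and 155 down, and without 1 wild type mouse 40 to 123 were called. These 283 are called heat genes here. Their changes were measured on 4 wild type libraries (12 weeks, control and HS) that the comparison of R6/2 and Hsf1-/- mice does not use. The fit took 1 spread per gene from all 24 libraries, so the spread of the compared mice entered the choice.

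HSF1 is the transcription factor that binds heat shock elements, inverted repeats of GAA and TTC, in the promoters of chaperone genes when proteins unfold, and it drives their transcription. The chaperones it induces work in families: HSP70 proteins bind exposed stretches of unfolded clients, HSP40 (DNAJ) proteins deliver clients to them, HSP90 and its co-chaperones complete the folding of signalling and, in muscle, myosin clients, and HSP60 with HSP10 folds proteins inside mitochondria. Raising the body temperature of an animal also calls up programs that are not chaperones, among them glucocorticoid-responsive genes, metallothioneins, immediate early genes and regulators of energy metabolism.

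The 8 libraries held 23883708 to 34629910 counts. Hsf1 stood at 23.1 to 29 CPM (counts scaled to library size with TMM factors) in Hsf1-/- mice, 47.2 to 53.7 in R6/2 mice and 60.8 to 68.5 in wild type mice, so reads on the gene were fewer but not absent in the knockout, and counts per gene do not show which exons they came from. Counts on 4 Y-linked genes were 0 to 4 in R6/2 mice, 0 in wild type mice and 4781 to 5365 in Hsf1-/- mice. A difference of genotype can therefore not be told apart from one of sex or of age. Skeletal muscle markers summed to 50850 to 91980 CPM in R6/2 mice and 242300 to 262600 in Hsf1-/- mice, with all 10 markers above 0 in every group, and the 20 highest genes took 14.8 to 19.8% and 35.2 to 36.1% of counts. In bulk muscle, fewer cells of a type and less RNA per cell cannot be told apart.

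Promoter sequences of 4 chaperone genes whose response was larger in R6/2 and of Ppargc1a, whose response was larger in Hsf1-/- mice, show what a heat shock element looks like and where it stands. They are from RefSeq (GRCm38.p6, not the build of the counts), 5′ to 3′ on the gene's strand, and hold the 130 bases before the transcription start. Capitals mark matches to GAANNTTC or TTCNNGAA. Coordinates are given in the same order: chr17:34959239-34959368 (- strand) for Hspa1b, chr17:34972157-34972286 (- strand) for Hspa1a, chr4:40722338-40722467 (+ strand) for Dnaja1, chr1:55088018-55088147 (+ strand) for Hspe1 and chr5:51567726-51567855 (- strand) for Ppargc1a.
Hspa1b: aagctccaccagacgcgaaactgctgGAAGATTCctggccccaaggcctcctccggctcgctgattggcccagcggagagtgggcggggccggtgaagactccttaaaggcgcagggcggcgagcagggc
Hspa1a: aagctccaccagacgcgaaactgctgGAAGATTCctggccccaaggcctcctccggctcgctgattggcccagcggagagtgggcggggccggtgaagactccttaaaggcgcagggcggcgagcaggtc
Dnaja1: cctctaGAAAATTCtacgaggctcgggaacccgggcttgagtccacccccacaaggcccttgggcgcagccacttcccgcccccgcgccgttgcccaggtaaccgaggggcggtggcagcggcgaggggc
Hspe1: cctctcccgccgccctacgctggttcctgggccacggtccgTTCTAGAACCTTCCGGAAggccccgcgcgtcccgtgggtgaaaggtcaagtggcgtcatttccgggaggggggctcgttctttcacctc
Ppargc1a: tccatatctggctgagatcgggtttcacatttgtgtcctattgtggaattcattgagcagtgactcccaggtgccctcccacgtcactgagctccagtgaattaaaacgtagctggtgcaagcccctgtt
The Hspa1a and Hspa1b windows were identical at 129 of 130 bases, with 1 match at the same place. Hspe1 held 3 overlapping matches, and the Ppargc1a window held none. RefSeq gives Dnaja1 3 starts: the window of the first is shown, and those of the other two held no match.

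Among the heat genes, chaperones were where R6/2 mice responded more than Hsf1-/- mice. Of the 283 heat genes, 21 were chaperones of the 6 listed families, and in wild type mice all 21 rose, with a median log2 change of 1.34. Their median was 0.36 in R6/2 mice and -0.04 in Hsf1-/- mice, and the R6/2 minus Hsf1-/- difference was above 0 for 18 of the 21, with a median of 0.39. Over the other 262 heat genes the medians were 0.62 in R6/2, 0.68 in Hsf1-/- and -0.06 for the difference, signed so that the wild type direction is positive. Over all genes tested the median difference was 0.01. The chaperone response was thus small in R6/2 and near 0 in Hsf1-/- mice, while over the other heat genes the medians of both genotypes lay close together.

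No gene passed the test of the difference itself. In edgeR's quasi-likelihood test, 0 of 13754 genes (0%) had an adjusted p below 0.05, the smallest adjusted p was 0.41, while the unadjusted p was below 0.05 for 500. By DESeq2 5 genes were called: Hspa1b, Hspa1a and Hsp90aa1, higher in R6/2, and Stum and Fosl1, lower. These 2 were no heat genes and are named because their values were seen, and Fosl1 had no count in either Hsf1-/- control. All single-gene differences below are given with this limit, and their unadjusted p-values order the genes without calling them. Of the heat genes, 17 had an unadjusted p below 0.05 with the larger response in R6/2 (6.01%, against 1.54% of all genes tested) and 17 with the larger response in Hsf1-/- mice (6.01%, against 2.07%). Of the former, 16 had a mean of at least 1 CPM and all 16 rose in wild type mice, and 8 of the 16 were listed chaperones. Of the latter, 9 rose and 8 fell in wild type mice, and 0 were listed chaperones. The heat genes were called with the same spread per gene as the difference, so the shares of 6.01% are not from an independent list. In each response on its own, 6 genes were called in R6/2 mice (0.0436%), all up: Hspa1b, Hspa1a, Hsp90aa1, Ctla2a, Tinagl1 and Gda. In Hsf1-/- mice 1 gene was called, Ppargc1a (0.00727%). At an unadjusted p below 0.05 these were 1117 and 1211 genes. These counts are edgeR's, and DESeq2 called more genes in both responses, as given in the last section. Without R6/2 HS mouse 2 the R6/2 count rose from 6 to 500, and without R6/2 HS mouse 1 it was 3, with the remaining mouse assumed to vary like the other groups. The Hsf1-/- count was 28 without Hsf1-/- HS mouse 2 and 0 without either Hsf1-/- control. Heat genes with the larger response in Hsf1-/- at an unadjusted p below 0.05 numbered 9 without R6/2 control mouse 1 and 40 without mouse 2, against 24 and 16 with the larger response in R6/2.

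**Figure D1:**
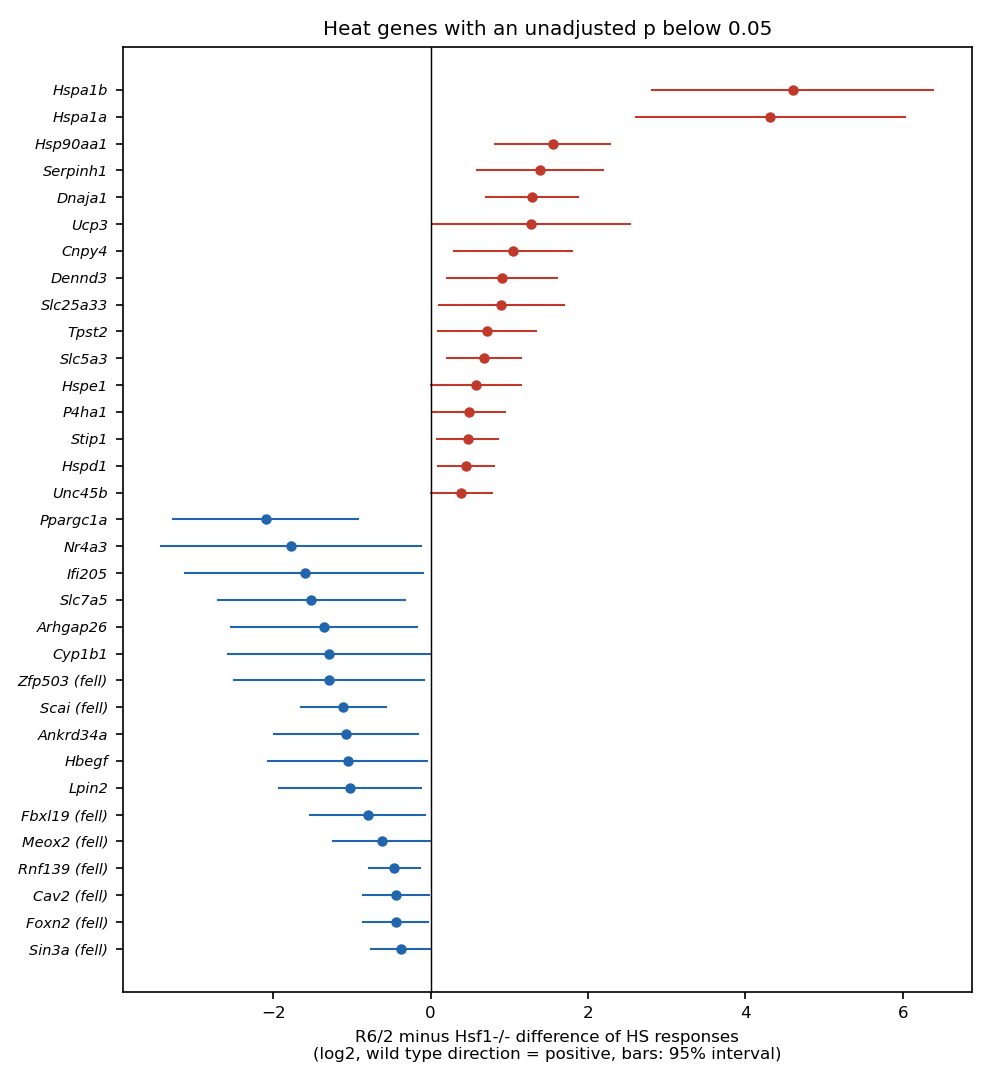
R6/2 minus Hsf1-/- difference of HS responses (log2, horizontal axis, wild type direction positive) for the 33 heat genes of at least 1 CPM with an unadjusted p below 0.05; points are the fitted differences, bars 95% intervals, red for a larger response in R6/2 (16 genes) and blue in Hsf1-/- mice (17 genes), with genes that fell in wild type mice marked. Hspa1b and Hspa1a stand apart at 4.60 and 4.32, and the blue genes run from -2.09 (Ppargc1a) towards 0.

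Hspa1a and Hspa1b, the stress-inducible HSP70 genes, had the largest differences among heat genes with a mean of at least 1 CPM. Hspa1a (mm9 chr17:35106144-35109069) was at 3.34 and 2.13 CPM in the 2 control mice and at 3.00 and 1.91 CPM in the 2 HS mice of the Hsf1-/- genotype. In R6/2 mice it was at 11.7 and 3.9 CPM in controls and 158 and 119 CPM after HS, and in wild type mice at 3.37 and 11.1 CPM and then 961 and 1063 CPM. The R6/2 HS mice were above every R6/2 control and every Hsf1-/- mouse, and below both wild type HS mice. The log2 change was 4.15 ± 0.55 (SE) in R6/2, -0.17 ± 0.62 in Hsf1-/- and 7.11 in wild type mice. The difference between R6/2 and Hsf1-/- was 4.32 ± 0.81 (95% interval 2.61 to 6.03, unadjusted p = 6.0e-05, adjusted p = 0.41 in edgeR). Hspa1b (chr17:35093381-35096183) went from 8.94 and 2 CPM to 124 and 107 CPM in R6/2 mice and from 1.27 and 1.18 CPM to 1.21 and 0.914 CPM in Hsf1-/- mice, a difference of 4.60 (2.81 to 6.39). Without R6/2 control mouse 1 the Hspa1b difference was 6.06 with an adjusted p of 0.0017, and that of Hspa1a was 5.32 with an adjusted p of 0.069. Without R6/2 control mouse 2 they were 3.90 (adjusted p = 0.18) and 3.74 (adjusted p = 0.3), and without any 1 of the other 6 mice the adjusted p-values of both ran from 0.1 to 1 (edgeR). The transcripts are 99.3% identical over 74 to 78.5% of their length, so the counting could split reads between them. Other HSP70-group heat genes were close in both genotypes: Hspa1l, an HSP70 best known from testis, had log2 changes of -0.02 in R6/2 and -0.04 in Hsf1-/- mice against 2.02 in wild type, and Bag3, a nucleotide exchange factor, of 0.49 and 0.23 against 2.19. Hsph1 and Hspa4l, HSP110-type exchange factors, had differences of 0.54 and 0.55 with unadjusted p-values of 0.052 and 0.072.

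The stress-inducible HSP90, Hsp90aa1 (chr12:111928815-111940938), came next. It was at 8.2 and 8.65 CPM in Hsf1-/- controls and 10.0 and 8.07 CPM after HS, and at 19.8 and 11.2 CPM in R6/2 controls and 50 and 47.7 CPM after HS. Both R6/2 HS mice were thus above all others of the 8, and the Hsf1-/- groups overlapped. The difference was 1.55 ± 0.34 (0.82 to 2.28, unadjusted p = 3.4e-04), with 42.5% of the wild type log2 change held in R6/2 and 2.68% in Hsf1-/- mice. It has near-identical copies in the genome, 1 on chromosome 11 and 1 on chromosome 3. Hsp90ab1, the constitutive HSP90, had no such gap: log2 changes of 0.15 and 0.18 and a difference of -0.03 (SE 0.19), which turned to 0.10, 0.08 and 0.13 without single mice. The study's qPCR of quadriceps, on more mice a group, differed. After HS it found Hsp90aa1 unchanged and Hsp90ab1 induced in wild type and R6/2 mice. Among HSP90 co-chaperones, Stip1, which links HSP70 to HSP90, had a difference of 0.47 ± 0.19, Unc45b, the myosin chaperone, of 0.39 ± 0.18, and Ahsa1, the ATPase activator, of 0.31 ± 0.15. Ptges3 and St13 had differences of 0.00 and 0.00. Of the 9 heat genes of this group, 8 had a difference above 0 and 3 of these an unadjusted p below 0.05, beside 142 and 17 of all 283 heat genes.

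Among HSP40 genes the 3 heat genes went apart. Of the 12 HSP40 genes tested, 5 had a difference above 0, with a median of -0.08. Dnaja1 (chr4:40669183-40684182) was at 4.52 and 4.38 CPM in R6/2 controls and 8.68 and 9.02 CPM after HS, and at 2.27 and 2.17 CPM and then 1.79 and 1.83 CPM in Hsf1-/- mice. Mice of each group lay close together and no groups overlapped. Its difference was 1.29 ± 0.27 (0.71 to 1.87, unadjusted p = 2.2e-04) and stayed between 1.22 and 1.32 under the 16 other settings. Dnajb1, the HSP40 that works with HSP70 in disaggregation, was at 10.2 and 11.6 CPM and then 7.88 and 9.02 CPM in R6/2 mice, and at 8.56 and 6.52 CPM and then 8.83 and 8.7 CPM in Hsf1-/- mice, while wild type mice went from 11.2 and 8.17 to 25.6 and 61.9 CPM. Its log2 change was -0.37 in R6/2 and 0.21 in Hsf1-/-, a difference of -0.58 ± 0.44 (unadjusted p = 0.2). Dnaja4 likewise had log2 changes of -0.21 and 0.15 against 2.53 in wild type mice. Of the wild type log2 change, 35.7% was left in R6/2 mice for Dnaja1 and -16.8% for Dnajb1, although all 3 genes rose in wild type mice. The study's qPCR of quadriceps, on more mice a group, found Dnajb1 induced by HS in R6/2 mice, though less than in wild type mice. The 2 R6/2 HS mice here did not show that rise.

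Among small and mitochondrial chaperones the heat genes gave smaller gaps. Of the 6 small heat shock proteins tested, only Hspb1 was a heat gene and only its difference was above 0. The median over the 6 was -0.45. Hspb1, which encodes HSP25, was at 60.3 and 27.3 CPM and then 114 and 58.1 CPM in R6/2 mice, so that 1 control lay above 1 HS mouse, and at 17.1 and 14.8 CPM and then 27.2 and 16.4 CPM in Hsf1-/- mice. Its difference was 0.53 ± 0.56, and -0.04 without R6/2 HS mouse 1. Hspb1 has a near-identical copy on chromosome 13, at 99.4% identity over 99.7% of the transcript. Hspd1 (HSP60) and Hspe1 (HSP10), which lie head to head on opposite strands, had differences of 0.45 ± 0.17 and 0.58 ± 0.27 with unadjusted p-values of 0.019 and 0.047. All 10 tested members of the mitochondrial list had a difference above 0, 2 of them with an unadjusted p below 0.05, and their median was 0.16. Of all 13754 genes tested, 7084 had a difference above 0. Hspd1 and Hspe1 overlap on opposite strands and each has a near-identical copy elsewhere. Over the 68 tested members of the 6 chaperone lists, 46 had a difference above 0, with a median of 0.08. Of the 68, 10 had an unadjusted p below 0.05 with the larger response in R6/2 and 0 with the larger response in Hsf1-/-. Of all 13754 genes tested these were 205 and 295. Of the 68, 3 were called in the R6/2 response and 0 in the Hsf1-/- response, beside 6 and 1 of all genes tested. Cct6a, of the cytosolic chaperonin, and Hspa12b, an endothelial HSP70-like gene, were the 2 of the 10 that were not heat genes.

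The other genes with a larger response in R6/2 included partners of collagen folding and metabolite carriers. Serpinh1, which encodes the collagen chaperone HSP47, was at 40.4 and 76.4 CPM in R6/2 controls and 209 and 118 CPM after HS. In Hsf1-/- mice it was at 72.4 and 68.5 CPM and then 80.8 and 69.7 CPM, so only R6/2 groups stood apart. Its difference was 1.39 ± 0.38 (0.59 to 2.19), and R6/2 mice held 81% of the wild type log2 change against 5.2% in Hsf1-/- mice. Without R6/2 HS mouse 1 the difference was 0.92, and without R6/2 control mouse 1 it was 1.00. P4ha1, a prolyl hydroxylase of collagen, had a difference of 0.49 ± 0.22. Ucp3, a mitochondrial uncoupling protein, had 1.28 ± 0.59, Slc25a33, a mitochondrial pyrimidine nucleotide carrier, 0.90 ± 0.38, and Slc5a3, the osmotically induced inositol transporter, 0.68 ± 0.22. Cnpy4, Dennd3 and Tpst2 had 1.05, 0.91 and 0.72. All 16 differences kept their sign when any 1 of the 8 mice was left out. The 16 were chosen by their unadjusted p on these same mice, so this is no independent check.

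**Figure D2:**
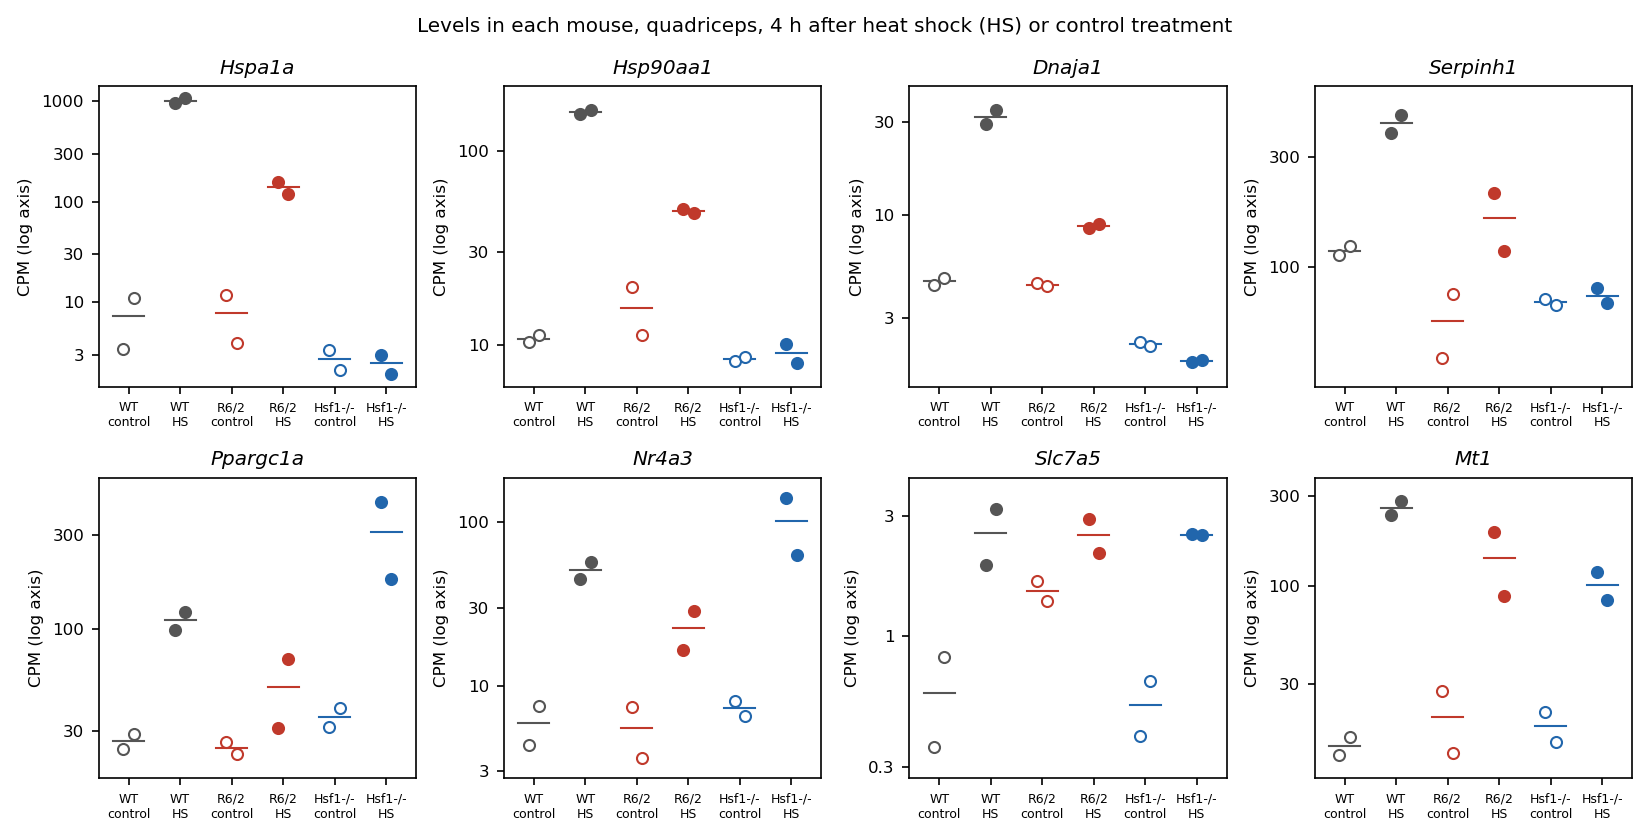
Level of 8 genes in each mouse (CPM after TMM scaling, log axis) in control (open) and HS (filled) groups of wild type (grey), R6/2 (red) and Hsf1-/- (blue) mice, 2 points a group, with a line at their mean. In the upper row R6/2 HS mice lie above R6/2 controls and Hsf1-/- HS mice lie close to their controls. In the lower row both HS mice lie above both controls for all 4 genes in Hsf1-/- and in R6/2 mice.

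Among genes that responded less in R6/2 than in Hsf1-/- mice, Ppargc1a had the largest difference of the heat genes with a mean of at least 1 CPM. Its list of NR4A, PGC-1 and metabolic regulators did not lean the same way: 4 of its 6 heat genes had a difference above 0, with a median of 0.40. Ppargc1a (chr5:51845488-51958964), which encodes the mitochondrial biogenesis coactivator PGC-1alpha, was at 31.7 and 39.4 CPM in Hsf1-/- controls and 441 and 178 CPM after HS. In R6/2 mice it was at 26.4 and 23.1 CPM and then 31.3 and 69.8 CPM, and in wild type mice at 24.4 and 28.9 CPM and then 98.5 and 122 CPM. Both Hsf1-/- HS mice were above both wild type HS mice, and R6/2 HS mouse 1 was near the controls. The log2 change was 3.12 ± 0.42 in Hsf1-/- (adjusted p = 0.016) and 1.03 ± 0.39 in R6/2 (adjusted p = 0.45), a difference of -2.09 ± 0.56 (-3.27 to -0.92, unadjusted p = 0.0016). Without Hsf1-/- HS mouse 1 it was -1.30, and the call of the Hsf1-/- response was lost without that mouse or either Hsf1-/- control (adjusted p = 0.14, 0.31 and 0.32). Nr4a3, an orphan nuclear receptor induced by exercise, went from 8.12 and 6.52 to 142 and 63 CPM in Hsf1-/- mice and from 7.38 and 3.62 to 16.5 and 28.6 CPM in R6/2 mice, a difference of -1.77 ± 0.78. It was -1.16 (unadjusted p = 0.2) without R6/2 control mouse 1 and -1.07 without Hsf1-/- HS mouse 1. With a gene counted as kept where at least 50% of the wild type log2 change was left, both genes were kept in both genotypes, Ppargc1a at 50.4% in R6/2 and 153% in Hsf1-/- mice and Nr4a3 at 65.6% and 123%.

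Slc7a5 and Arhgap26 were kept in Hsf1-/- mice only. Slc7a5 (chr8:124405052-124431594), the large neutral amino acid transporter, was at 0.398 and 0.662 CPM in Hsf1-/- controls and 2.53 and 2.5 CPM after HS, and at 1.65 and 1.37 CPM and then 2.91 and 2.13 CPM in R6/2 mice. After HS the levels of both genotypes thus overlapped, and it was the controls that differed, which were higher in R6/2 by 1.52 on the log2 scale (adjusted p = 0.02). Its difference of responses was -1.52 ± 0.56. Arhgap26, a GTPase-activating protein, went from 70.8 and 35.1 to 234 and 138 CPM in Hsf1-/- mice and from 21.9 and 21.8 to 29.5 and 30.7 CPM in R6/2 mice, a difference of -1.35 ± 0.56. Lpin2, a lipin phosphatase, was at 4.66 and 5.72 CPM and then 6.3 and 10.5 CPM in Hsf1-/- and at 11.6 and 7.45 CPM and then 7.49 and 7.7 CPM in R6/2 mice. Hbegf, an EGF-family growth factor, Cyp1b1, a cytochrome P450, and Ifi205, an interferon-inducible gene, had differences of -1.05, -1.29 and -1.60. For Ankrd34a the difference of -1.07 lay between log2 changes of -1.25 in R6/2 and -0.17 in Hsf1-/- mice, beside 1.55 in wild type, so it was kept in neither genotype.

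The remaining 8 of these 17 genes fell in wild type mice after HS and had negative log2 changes in Hsf1-/- mice. Scai, a suppressor of cell invasion that acts on SRF cofactors, had the smallest unadjusted p of the 17 (4.6e-04): it was at 12.5 and 12.3 CPM and then 5.33 and 6.16 CPM in Hsf1-/- mice, and at 6.94 and 7.07 CPM and then 6.46 and 7.53 CPM in R6/2 mice. In wild type mice it was at 7.6 and 6.72 CPM and then 3.73 and 4.28 CPM. The R6/2 controls thus lay near the wild type controls, and the Hsf1-/- controls lay above both. The R6/2 and Hsf1-/- controls differed at an adjusted p of 0.0047 (edgeR). Zfp503, a zinc finger repressor, went from 119 and 58.1 to 29.1 and 21.9 CPM in Hsf1-/- mice. In R6/2 mice it went from 27 and 28.9 to 20.4 and 19 CPM. Wild type controls were at 136 and 135 CPM, so for Zfp503 the R6/2 controls were the low ones. Rnf139, a ubiquitin ligase, had a log2 change of -0.32 in Hsf1-/- and 0.14 in R6/2 mice, with a difference of 0.46 ± 0.15. Fbxl19, Meox2, Cav2, Foxn2 and Sin3a likewise had less negative changes in R6/2, with differences of 0.80, 0.62, 0.44, 0.44 and 0.38. All 17 kept their sign when any 1 of the 8 mice was left out. They too were chosen by their unadjusted p on these same mice, so this is no independent check.

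Over all heat genes both genotypes had a similar median response. The median over the 283, in the wild type direction, was 0.58 in R6/2 and 0.61 in Hsf1-/- mice. Single HS mice, each against the mean of the same 2 controls, gave 0.59 and 0.57 (R6/2) and 0.58 and 0.60 (Hsf1-/-). These values leave out the spread of the controls. The R6/2 median was 0.76 without R6/2 control mouse 1 and 0.45 without R6/2 control mouse 2. The wild type median, 1.41, comes from the values that chose the 283 genes and is raised by that choice, so a lower median, or a share of the wild type change below 100%, shows no loss of response by itself. Across the 262 heat genes that are no listed chaperone, R6/2 and Hsf1-/- responses had a Pearson correlation of 0.76, across the 21 chaperones one of -0.24, and across all 13754 genes 0.13. These are correlations across genes, which are not independent replicates, over 2 pairs of groups that share no mouse. The 262 hold 198 genes that rose in wild type mice and others that fell, while all 21 chaperones rose. The correlations are thus over unlike sets and are not directly comparable. By the same 50% share, 69 heat genes were kept in both genotypes, 43 in R6/2 only, 73 in Hsf1-/- only and 98 in neither. None of the 21 chaperones was kept in Hsf1-/- mice, 3 were kept in R6/2 (Hspa1a, Hspa1b and Ahsa1) and 18 in neither.

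**Figure D3:**
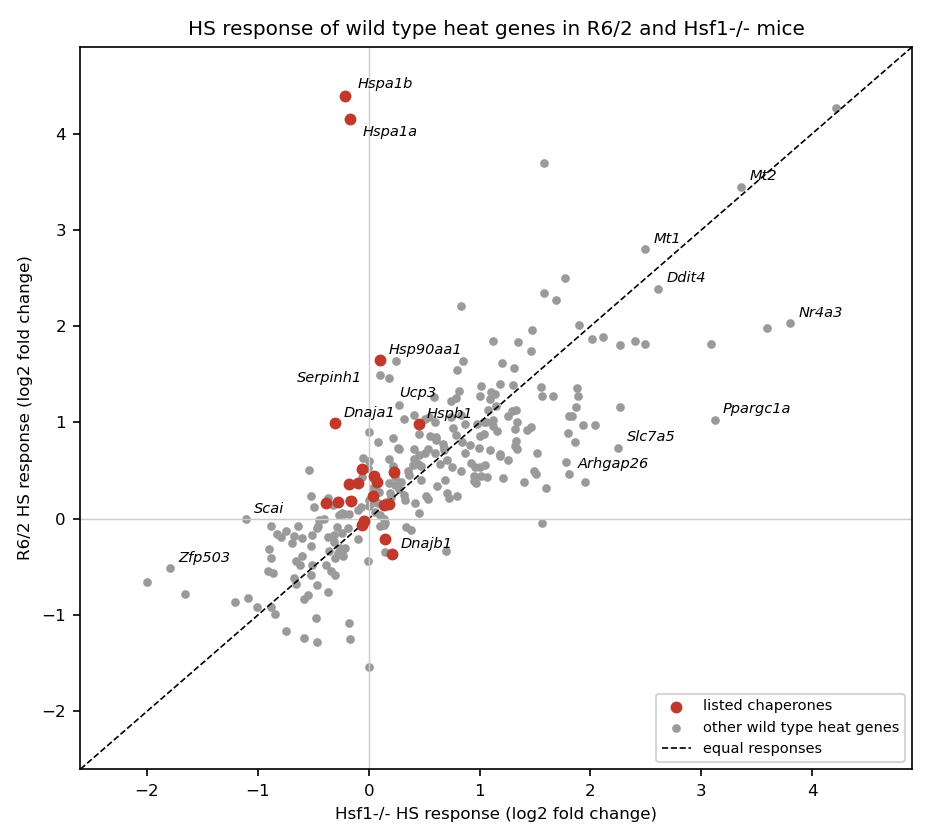
HS response (log2 fold change) of the 283 wild type heat genes in R6/2 mice (vertical axis) against Hsf1-/- mice (horizontal axis), with listed chaperones in red and the line of equal responses dashed. Most grey points lie along the line (Pearson correlation 0.76 over 262 genes), while Hspa1a and Hspa1b lie above it near 0 on the horizontal axis and Ppargc1a lies below it.

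Heat genes of several other programs follow, and none of those named was called by edgeR in the response of either genotype. The number called depends on the test, and DESeq2 called more genes in both responses. Among metallothioneins, which bind zinc and respond to glucocorticoids and metal, Mt1 went from 27.5 and 12.9 to 193 and 88.9 CPM in R6/2 mice and from 21.3 and 14.9 to 119 and 84.8 CPM in Hsf1-/- mice, with log2 changes of 2.80 and 2.49 against 4.20 in wild type. Mt2 had 3.45 and 3.36 against 4.93. Their differences, 0.31 ± 0.94 and 0.09 ± 1.21, had errors wider than themselves. Of the 30 glucocorticoid-responsive genes tested, 16 were heat genes, with median changes of 1.05 in R6/2 and 1.17 in Hsf1-/- mice against 2.45, and 0 were called in the difference or in either genotype's response. Of the 16, 6 were kept in both genotypes, 3 in R6/2 only, 2 in Hsf1-/- only and 5 in neither. Klf15, a regulator of amino acid breakdown, was kept in both (0.94 and 0.76 against 1.49), and Ddit4, an inhibitor of mTORC1, in neither (2.39 and 2.61 against 5.71). Trim63, the muscle ubiquitin ligase MuRF1, was at 557 and 302 CPM and then 959 and 1165 CPM in R6/2 mice, and at 324 and 247 CPM and then 730 and 531 CPM in Hsf1-/- mice. All 4 heat genes of the IL6, STAT3 and NF-kB feedback list were kept in both, among them Il4ra, an interleukin receptor chain, at 1.89 and 2.11 against 1.79. Of the 4 heat genes among p53 targets, 3 were kept in Hsf1-/- mice only: Cdkn1a, a cell cycle inhibitor, and Sesn1 and Trp53inp1, with R6/2 minus Hsf1-/- differences of -1.07 ± 0.77, -0.84 ± 0.54 and -0.37 ± 0.48. The median difference over the 4 was 0.18 without R6/2 control mouse 1, with 3 above 0, and -0.92 without mouse 2, with 1 above 0.

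**Figure D4:**
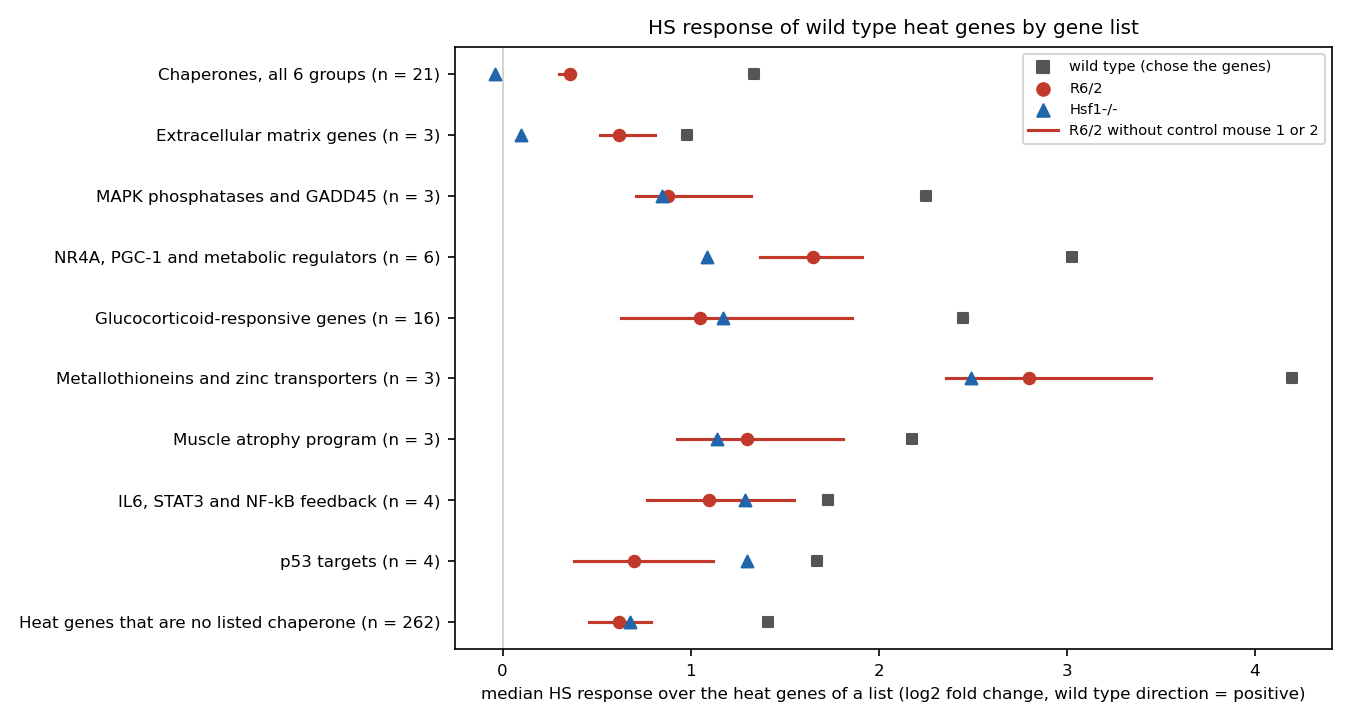
Median HS response (log2 fold change, wild type direction positive) over the heat genes of 10 gene lists in wild type (grey squares), R6/2 (red circles) and Hsf1-/- (blue triangles) mice; the red line joins the R6/2 medians found without control mouse 1 and without control mouse 2. For the 21 chaperones the R6/2 line (0.30 to 0.35) stays above the Hsf1-/- median of -0.04, and for the 16 glucocorticoid-responsive genes it runs from 0.63 to 1.86, across the Hsf1-/- median of 1.17.

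The counts of genes kept in 1 genotype only changed with a single R6/2 control mouse. Of the 219 heat genes that rose in wild type mice, 173 were higher in R6/2 control mouse 1 than in mouse 2, by a median of 0.30 on the log2 scale, against 103 of 219 between the Hsf1-/- controls (median -0.02) and 80 of 219 between the wild type controls (-0.07). Ddit4 was at 98.1 CPM in R6/2 control mouse 1 and 14.7 CPM in mouse 2, Cdkn1a at 242 and 52.3 CPM and Cebpd, a C/EBP factor of the acute phase, at 109 and 39.2 CPM. Without mouse 1, 80 heat genes were kept in R6/2 only and 46 in Hsf1-/- only, the opposite order of the 43 and 73 with both mice, and without mouse 2 the counts were 36 and 103. The signed difference was above 0 for all 16 glucocorticoid-responsive heat genes without mouse 1 and for 1 of 16 without mouse 2, with medians of 0.55 and -0.35. The chaperones gave 0.40 and 0.35, with 19 and 15 of 21 above 0. The median gap over chaperones thus stayed above 0 without either mouse, and that over the other heat genes changed sign, from 0.12 without mouse 1 to -0.20 without mouse 2.

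Immediate early and stress genes that were not heat genes differed widely between mice of a group. Atf3, a stress-induced transcription factor, was at 177 and 23.9 CPM in R6/2 controls, 20.2 and 23.9 CPM in R6/2 HS mice, 19.7 and 7.33 CPM in Hsf1-/- controls and 533 and 32.1 CPM in Hsf1-/- HS mice. Its difference of -6.57 ± 1.84 (unadjusted p = 0.0024) stood beside high values in R6/2 control mouse 1 and Hsf1-/- HS mouse 1. Ankrd1 and Xirp1, stretch-induced muscle genes, were high in the same 2 mice, at 170 and 110 CPM (Ankrd1) and 1375 and 2084 CPM (Xirp1), while the other 6 mice were at 4.14 to 22.3 CPM and 217 to 413 CPM. Egr1, an immediate early gene, reached 276 CPM in Hsf1-/- HS mouse 1 and 11.2 CPM in mouse 2. Of the 19 immediate early genes tested, 4 had an unadjusted p below 0.05 with a lower response in R6/2 and 1 (Klf4) with a higher one, and of the 19 ATF4 targets 4 and 0, beside 295 and 205 of all 13754 genes tested. Ubqln1, a ubiquilin on the list of other HSF1-linked genes, was at 9 and 9.45 CPM and then 12.9 and 12.7 CPM in Hsf1-/- mice and at 13 and 10.3 CPM and then 8.45 and 10.5 CPM in R6/2 mice, a difference of -0.78 ± 0.21.

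Of the 18 endothelial genes tested, 17 had a difference above 0, with a median of 0.39, and 3 had an unadjusted p below 0.05: Klf2 and Klf4, flow-responsive factors, and Nos3, the endothelial nitric oxide synthase (1.23, 0.89 and 0.95). Of all 13754 genes tested, 7084 had a difference above 0 and 205 an unadjusted p below 0.05 with the larger change in R6/2. Nos3 was at 17.4 and 20.1 CPM and then 58.9 and 31.3 CPM in R6/2 mice and at 20 and 19.1 CPM and then 25.3 and 23.5 CPM in Hsf1-/- mice. The summed level of the list was 734 to 738 CPM in R6/2 controls, 824 to 1195 CPM after HS, 847 to 995 CPM in Hsf1-/- controls and 895 to 1031 CPM after HS. Slow-fibre markers were lower after HS in both genotypes, with 0 of 5 called: they summed to 76.9 to 181 CPM in R6/2 controls and 26.4 to 46.8 CPM after HS, and to 375 to 503 CPM and then 86.3 to 149 CPM in Hsf1-/- mice. The part of muscle composition in these responses was not tested.

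Muscle of the control mice of both genotypes differed widely. These mice had the anaesthesia and heating pad of the control treatment, so they were not untreated. Between R6/2 and Hsf1-/- controls 2532 genes were called (18.4%), 1259 higher and 1273 lower in R6/2. With scaling by library size only, 6617 were called, 6291 of them higher in R6/2, and the median of all genes moved from 0.04 to 0.63. Chaperone levels of R6/2 controls were above those of Hsf1-/- controls for Hspa1b (log2 2.16, adjusted p = 0.015), Hsp90aa1 (0.88, adjusted p = 0.019), Dnaja1 (1.00, adjusted p = 0.0024) and Stip1 (0.62, adjusted p = 0.0039), and not detectably for Serpinh1 (-0.27, adjusted p = 0.53). R6/2 control mouse 1 was above mouse 2 for Hspa1b (8.94 and 2 CPM) and Hsp90aa1 (19.8 and 11.2 CPM), and both were alike for Dnaja1 (4.52 and 4.38 CPM). For these 4 genes the larger response in R6/2 thus started from a higher control level.

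The same difference of responses was taken for HSP990, an oral HSP90 inhibitor that activates HSF1, given at 12 mg/kg and compared with vehicle, in 8 libraries of R6/2 mice (12 weeks) and Hsf1-/- mice (8 weeks) that share no mouse with the HS groups. All mice of that experiment had 3916 to 9392 Y-linked counts, so both genotypes had them there, while age still differed. Of the 16 genes with a larger HS response in R6/2, 7 were called larger in R6/2 after HSP990 (0.153% of all genes tested) and 0 larger in Hsf1-/- (0.0654%): Hspa1b, Hspa1a, Hsp90aa1, Dnaja1, Unc45b, Stip1 and P4ha1. Their HSP990 differences were 6.93, 5.30, 2.88, 2.25, 1.61, 1.17 and 1.11, each with an adjusted p of at most 0.04. The median over the 16 was 1.14, against -0.33 over all heat genes. Of the 17 genes with a larger HS response in Hsf1-/- mice, 1 was called the same way, Slc7a5 (-6.29, adjusted p = 5.0e-05), and 1 the opposite way, Ankrd34a (2.41, adjusted p = 0.013), and the median was -0.21. Ppargc1a and Nr4a3 had HSP990 differences of -0.70 and -2.43 with adjusted p-values of 0.83 and 0.44. For Dnajb1 the difference of -0.58 after HS stood beside 3.64 after HSP990 (adjusted p = 4.2e-04).

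**Figure D5:**
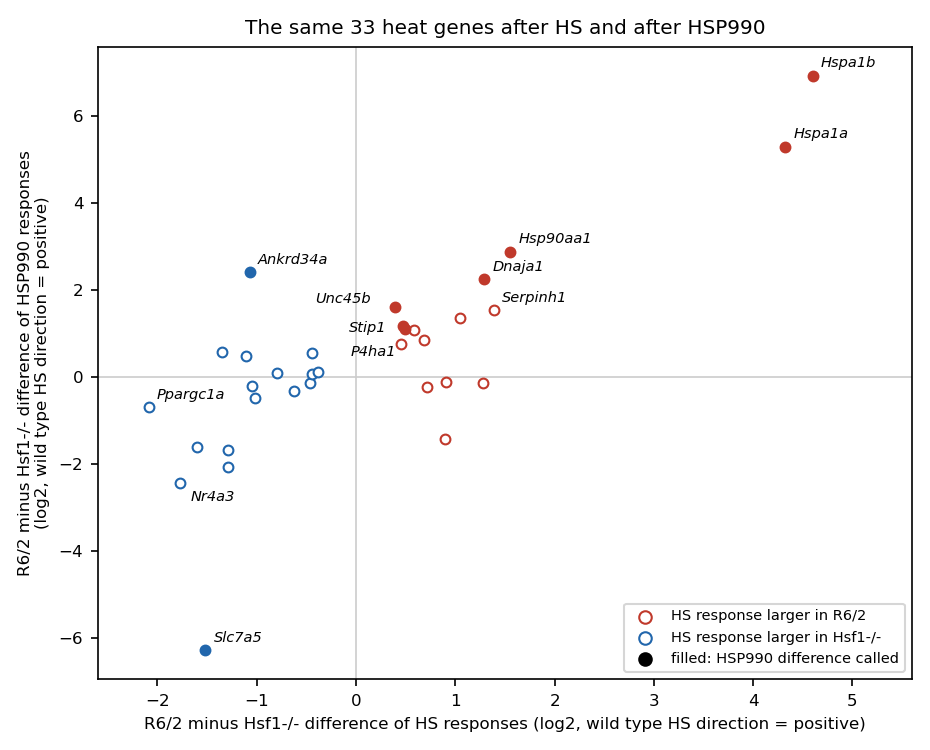
R6/2 minus Hsf1-/- difference of HSP990 responses (vertical axis, log2) against that of HS responses (horizontal axis, log2) for the 33 heat genes of at least 1 CPM with an unadjusted p below 0.05 after HS, each in its wild type HS direction; filled points were called after HSP990. The chaperones among the red genes lie in the upper right, up to Hspa1b at 4.60 and 6.93, and the blue genes scatter around 0 on the vertical axis with Slc7a5 at -6.29.

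In the RefSeq windows from 250 bases before to 50 after the start, GAANNTTC or TTCNNGAA stood in 6 of 14 genes with a larger response in R6/2 (Hspa1a, Hspa1b, Dnaja1, Hspd1, Hspe1 and Cnpy4) and in 0 of 12 genes with a larger response in Hsf1-/- mice. Among all genes tested 14% of 10838 with a promoter held it, among all heat genes 18.7% of 219, and among the chaperone heat genes 55.6% of 18. The glucocorticoid palindrome ACANNNTGT stood in 0 of 14 and 0 of 12, in 15.3% of 59 heat genes kept in both genotypes, 16% of 50 kept in Hsf1-/- only, 2.86% of 35 kept in R6/2 only and 5.36% of all genes. TTCNNNGAA, a STAT site, was found in 1 of 14 and 0 of 12, the E-box CACGTG in 3 of 14 and 1 of 12, and the cAMP element TGACGTCA in 0 of 14 and 0 of 12. Both strands were searched, and a gene with several starts was counted once if any window held the letters. Dnajb1, Serpinh1 and Stip1 had no heat shock element of this form in their windows. These are matches of letters, counted without a test, and the Hspa1a and Hspa1b matches stand in nearly identical sequence.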

How the data were processed

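RNA-seq of quadriceps femoris muscle of 24 mice, 2 in each of 12 groups, was analysed. The authors made strand-specific paired-end libraries of polyA RNA, mapped reads to mm9 with Bowtie and deposited raw counts per gene without normalization. The counting program and annotation, and whether strand was used in counting, are not given in the sources used here. The p-values measure the spread between these mice only. The genes followed and the gene lists were chosen with earlier results of these data known.

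The filter was that of the study, 2 or more counts in 10 or more libraries, which left 13754 of 18669 genes (18594 had a RefSeq symbol). The fit was made in edgeR 4.0.16 (R 4.3.3, limma 3.58.1) with TMM scaling and 1 mean per group, by quasi-likelihood with 12 residual degrees of freedom, and p-values were adjusted by Benjamini-Hochberg with a threshold of 0.05. An exact permutation test of 2 against 2 mice cannot go below 0.333 and was not used. Levels are CPM after TMM. Named genes were the qPCR panel of the study, heat genes of at least 1 CPM with the largest called differences or, since none was called, the smallest unadjusted p in each direction, up to 4 called members of each list with the smallest p, and list members that a sentence needs. Copies of at least 98% identity over at least 50% of a transcript were searched for with minimap2 2.31. All 24 totals were 22450177 to 46599238.

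On simulated data of 13754 genes with equal spread in all groups, the test of the R6/2 minus Hsf1-/- difference called 37.9% of 66 genes changed by 1 log2 unit, 79.1% of 67 changed by 2 and 97% of 67 changed by 4, and 5 unchanged genes. In the data the spread was not equal. The chi-square between replicates per degree of freedom was 110.2 in R6/2 control and 106.1 in R6/2 HS mice. It was 19.42 to 30.8 in the wild type and Hsf1-/- groups of the HS experiment. The simulated shares may therefore not hold for the data, and the fit too takes 1 spread per gene for all groups. Alternatives were RLE scaling, library size only, no filter, filterByExpr, thinned counts, fits of fewer groups, the replicate number as a block, DESeq2 1.42.0 and leaving out each mouse. Other shares that count as kept, crossed replicate numbers and the HSP990 difference were added after seeing the data.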

Additional observations from a re-analysis of the deposited data

Results flagged for a closer look

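The R6/2 minus Hsf1-/- difference of HSP990 responses passed edgeR's test (adjusted p below 0.05) for 13 of the 68 named genes, 12 with the higher response in R6/2. Each is a difference of effects between genotypes in libraries that the HS comparison does not use. On the log2 scale it was 6.93 for Hspa1b, 5.3 for Hspa1a, 2.88 for Hsp90aa1, 2.25 for Dnaja1 and 3.64 for Dnajb1. It was 1.99 for Hspa4l, 1.55 for Hsph1, 1.61 for Unc45b, 1.17 for Stip1 and 1.04 for Ahsa1, all co-chaperones or exchange factors. P4ha1 was at 1.11 and Ankrd34a at 2.41. Slc7a5 was the gene with the lower response in R6/2, at -6.29. For Dnajb1 and Ankrd34a the HS difference had the opposite sign (-0.58 and -1.07). The R6/2 and Hsf1-/- mice differed in age in both experiments, and age cannot be told apart from genotype.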

How the results depend on the processing

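No gene was called in the R6/2 minus Hsf1-/- difference with RLE scaling, library size only, no filter, filterByExpr, thinned counts, only the groups compared or a replicate block, and DESeq2 called 5, of which 3 were heat genes. Leaving out 1 mouse gave 0 to 5 calls. Among single genes and medians, 452 values under alternatives counted as the same, 4 passed the threshold, 9 moved and 4 turned sign. A single gene counted as the same if it kept its direction and side of the threshold. A median did so if it shifted by less than the spread between single mice. No single gene was called in the main fit of the difference, so keeping its side meant staying uncalled. The sign turned for Hsp90ab1 (0.10 without Hsf1-/- control replicate 2, 0.08 without Hsf1-/- HS replicate 1, 0.13 without R6/2 control replicate 1) and Hspb1 (-0.04 without R6/2 HS replicate 1). Without 1 mouse they ran from -0.17 to 0.13 and from -0.04 to 1.22. The causes were not tested. Depth and 2 mice a group limit what small differences can be seen.

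The Hsf1-/- response had 1 call, and 6 with RLE, 28 without a filter, 27 with thinned counts, 98 with only its groups, 9 with the block, 161 with DESeq2 and 0 to 28 without 1 mouse. The R6/2 response had 6 calls, and 3 with library size only, 13 without a filter, 10 with only its groups, 127 with DESeq2 and 3 to 500 without 1 mouse. The wild type response had 283, and 598 with only its groups, 542 with DESeq2 and 40 to 123 without 1 mouse. The untreated contrast had 2532, and 6617 with library size only and 981 to 2199 without 1 mouse.

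Heat genes with an unadjusted p below 0.05 and the larger response in R6/2 numbered 10 with library size only, 29 with only the groups compared and 7 to 24 without 1 mouse. Those larger in Hsf1-/- numbered 30 with DESeq2, 28 with DESeq2 for the wild type list and 0 to 40 without 1 mouse. Genes kept in R6/2 only, Hsf1-/- only, both and neither numbered 99, 129, 160 and 210 with only the groups compared. They numbered 87, 134, 135 and 186 with DESeq2, and 86, 132, 137 and 187 with DESeq2 for the wild type list alone. Without 1 mouse, wild type mice included, they ran from 4 to 80, 4 to 103, 8 to 105 and 24 to 127. With a lower share counting as kept, 134 were kept in both and 57 in neither, and with a higher share 27 and 156.

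Same-numbered mice did not all deviate together (correlations of -0.16 in R6/2 and 0.24 in Hsf1-/-, and -0.04 to 0.05 between genotypes), so the numbers do not pair mice. The replicate block gave 0 calls for the difference, 5 in R6/2, 9 in Hsf1-/-, 280 in wild type and 2448 between R6/2 and Hsf1-/- controls. Crossing the R6/2 numbers, chosen after seeing the data, gave 9 in R6/2.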
